A study of Mus musculus with 8 samples.

Results

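LINE-1 (L1) elements are retrotransposons that copy themselves through an RNA intermediate, and their copies are grouped into named repeat types. The 131 types described here were the repeat entries of the deposited table whose names start with L1, Lx or HAL1, out of 1038 repeat types and 38971 entries in all. The genes L1td1, L1cam and Lxn were left out, and MusHAL1 falls outside the name rule. By name the types fell into 6 L1Md_ types, 12 murine types named L1_ or L1VL, 21 Lx types, 85 L1M types, 2 L1P types and 5 HAL1 types.

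The RNA came from male mouse embryonic stem cells of strain 129, kept without feeder cells in serum and LIF, and every library carried the conditional Ythdc1 genotype (Ythdc1_cKO). Ythdc1 encodes a nuclear protein that binds N6-methyladenosine (m6A) in RNA, and 4-hydroxytamoxifen (4OHT) switches on recombinases fused to an estrogen receptor domain, the usual way to induce such a deletion. Cells were given 4OHT at 1 μg/ml or the solvent DMSO during 4 days, then 100 μM DRB during 3 h, which holds RNA polymerase II near promoters. After DRB was washed out, 4-thiouridine (4sU) at 1 mM was present during 8 or 0 min, and RNA carrying 4sU was purified. The 4 groups, each of 2 libraries, were therefore 4OHT at 8 min, DMSO at 8 min, 4OHT at 0 min and DMSO at 0 min. The part of Ythdc1 that is deleted and the source of the recombinase are not given in the sources used here. In the sample titles the stem cell number is 1 in all 0 min samples and 2 in all 8 min samples, but the deposited columns use numbers 1 and 2 at each time. A column was for this reason tied to its group and to no single sample, and a change with labelling time may also be a change of cell line. Columns without 4OHT in their name were read as DMSO. No source states that libraries of a group are separate cultures, and p-values here reflect the spread between libraries alone, possibly a technical one.

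A complete L1 element carries a promoter in its 5′ UTR and 2 reading frames, ORF1 for an RNA-binding protein and ORF2 for the endonuclease and reverse transcriptase. In the mouse the young families A, T and Gf still hold copies able to move, while the F families are older. Lx is a family shared by murine rodents, L1M types are spread across mammals and are ordered by letter from the younger L1MA to the older L1ME, L1P types were named in primates, and HAL1 types lack ORF2. In mouse embryonic stem cells, L1 RNA is abundant in the nucleus, lies in part on chromatin, carries m6A and is held down by DNA methylation and histone H3 lysine 9 methylation. Old types are mostly short fragments that sit in introns and other transcribed sequence, so reads assigned to them can come from RNA of a host gene.

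The libraries held 118 M and 134 M reads (M, mega) for 4OHT at 8 min, 112 M and 93.1 M for DMSO at 8 min, 58.3 M and 57.6 M for 4OHT at 0 min and 61.4 M and 46.3 M for DMSO at 0 min. Gm26917 alone accounted for 2.67% to 3.92% of a library at 8 min, against 23.2% to 27.7% at 0 min. Ythdc1 had deposited values of 2696 and 5168 with 4OHT and 1409 and 2708 with DMSO at 8 min, and of 129 and 412 with 4OHT and 133 and 185 with DMSO at 0 min. After the scaling on genes given with the tests, it had 2028 and 2460 in 4OHT libraries and 2941 and 3593 in DMSO libraries at 8 min (log2 fold change −0.54, adjusted p = 0.000847). At 0 min its log2 fold change was 0.26 (adjusted p = 1), so the gene did not separate the treatments there, and reads from a part that is not deleted cannot check the deletion. All 8 stem cell markers looked for, among them Pou5f1, Nanog and Sox2, were detected in every library. The summed values of 8 fibroblast or feeder markers were 41.6 and 49.9 with 4OHT and 60.4 and 71.3 with DMSO at 8 min, against 5514 and 5583 with 4OHT and 6921 and 6392 with DMSO for the stem cell markers.

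LINE-1 types together took 4.86% and 4.96% of all reads in 4OHT libraries and 5.69% and 5.37% in DMSO libraries at 8 min. At 0 min the share was 2.68% and 4.33% with 4OHT and 2.60% and 4.05% with DMSO, so that libraries of the same number lay closer to each other than libraries of the same treatment. Most of the gap at 8 min lay in the L1Md_ types. They took 1.29% and 1.34% of reads with 4OHT and 2.07% and 1.66% with DMSO, while all other LINE-1 types took 3.57% and 3.62% with 4OHT and 3.63% and 3.71% with DMSO.

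Within the LINE-1 signal of a library, a measure that needs no scaling between libraries, the 6 L1Md_ types made up 26.5% and 27.0% with 4OHT and 36.3% and 30.9% with DMSO at 8 min. The mean was 26.7% ± 0.388 with 4OHT and 33.6% ± 3.79 with DMSO (SD, n = 2 each). The 4OHT libraries lay within 1 percentage point of each other and below both DMSO libraries, which differed by more. At 0 min the L1Md_ share was 25.3% and 24.2% with 4OHT and 25.0% and 23.5% with DMSO, and the groups overlapped. An exact permutation test of 2 against 2 libraries cannot pass 0.05, so no p is given for these shares.

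Because shares sum to the whole, the other classes were also compared among themselves, leaving L1Md_ out. At 8 min L1M types then took 39.2% and 38.5% with 4OHT and 36.3% and 36.8% with DMSO. The murine L1_ and L1VL types took 23.4% and 23.8% with 4OHT and 25.7% and 25.3% with DMSO. Lx types took 36.0% and 36.3% with 4OHT and 36.7% and 36.6% with DMSO. At 8 min the L1M share was thus higher with 4OHT and the murine and Lx shares lower, without overlap of the groups in any of the 3. These shares again sum to the whole, so a higher share of one class lowers the others, and the 3 are not separate results. At 0 min the treatments overlapped in all 3, and the L1M share was 31.6% and 33.7% with 4OHT and 31.3% and 33.6% with DMSO.

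**Figure D1:**
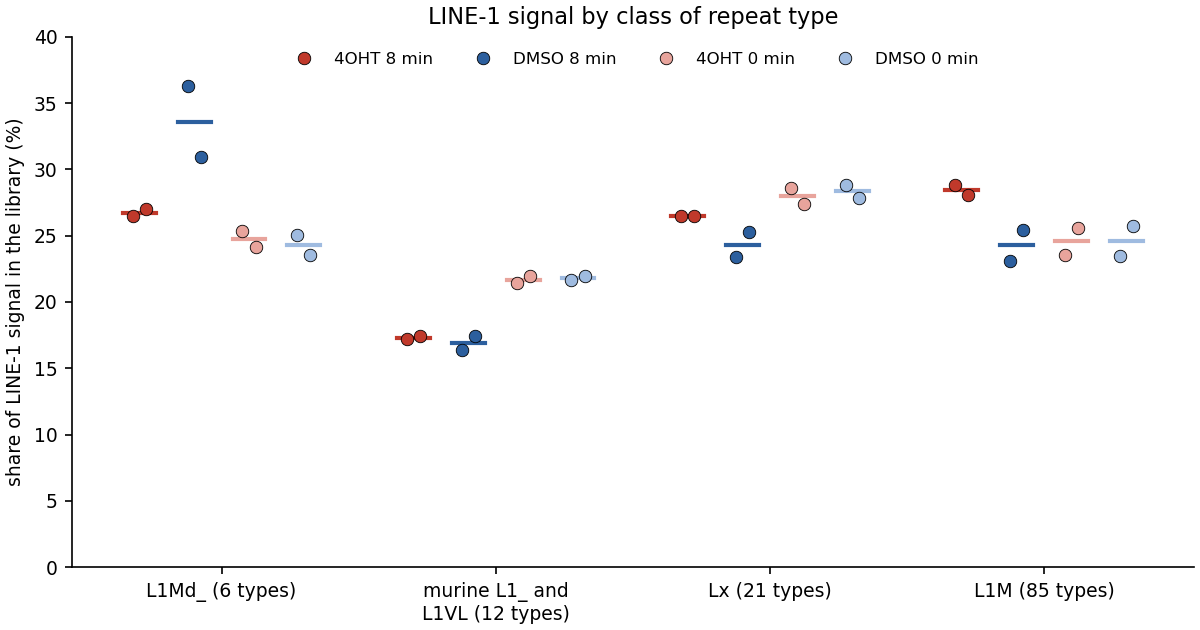
Share of the LINE-1 signal in a library (vertical axis, %) taken by 4 classes of LINE-1 type, with a point for each of the 8 libraries and a line at each group mean. The L1Md_ share at 8 min was 26.5% and 27.0% with 4OHT, below the 36.3% and 30.9% of DMSO, whereas at 0 min the treatments overlapped.

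To set each type against the typical gene, the 4 libraries of 8 min were divided by median-ratio size factors computed on genes, and log2(value + 1) was tested with limma over 20987 genes, repeats and structural RNAs (Benjamini-Hochberg adjusted p below 0.05). A type had to reach 10 in at least 2 of the libraries, which 128 of the 131 LINE-1 types did, and L1M2a1, L1M6B and L1M3b did not. In this comparison 5 of the 6 L1Md_ types were lower with 4OHT relative to the typical gene, whereas on the deposited scale, given further on, all 6 had positive values of which 0 were called. The sixth, L1Md_F2, did not pass on either scale. Over every entry tested, 17.9% were called higher and 16.8% lower, and of the 940 repeat types 2.02% were called higher and 9.36% lower. In bulk RNA, fewer cells with active copies and less RNA per cell cannot be told apart. Reads from near-identical copies such as those of L1Md_A, L1Md_T and L1Md_Gf may be shared between types, and how the authors assigned reads that map to several places is not given in the sources used here.

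L1Md_A, a young family with copies able to move, had scaled values of 14736 and 15036 with 4OHT and 28111 and 23100 with DMSO. Both 4OHT libraries lay below both DMSO libraries, at 0.584 times the DMSO level (log2 fold change −0.78 ± 0.11, SE; adjusted p = 2.49e-05). L1Md_Gf, another young family, had 3798 and 3941 with 4OHT and 6715 and 5304 with DMSO. Its fold was 0.648 (log2 fold change −0.63 ± 0.11, SE; adjusted p = 0.000154), again without overlap. L1Md_T, the type with the most reads of all LINE-1 types, had 56075 and 58919 with 4OHT and 96700 and 76507 with DMSO, a fold of 0.668 (log2 fold change −0.58 ± 0.13, SE; adjusted p = 0.00204). In all 3 young families DMSO number 1 was the highest library, and the 4OHT libraries differed little from each other.

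The 3 F types, which belong to older families, lay lower with 4OHT by less. L1Md_F had 1203 and 1241 with 4OHT and 1671 and 1741 with DMSO (log2 fold change −0.48 ± 0.09, SE; adjusted p = 0.000559). L1Md_F3 had 5095 and 5293 with 4OHT and 6531 and 6059 with DMSO (log2 fold change −0.28 ± 0.10, SE; adjusted p = 0.0302). L1Md_F2 had 20486 and 21028 with 4OHT and 23642 and 24224 with DMSO (log2 fold change −0.21 ± 0.11, SE), which did not pass (adjusted p = 0.138). The groups did not overlap for any of the 6, against 34.1% of every entry tested and 38.2% of repeat types whose 4OHT libraries both lay below both DMSO libraries. The median log2 fold change of the 6 was −0.53, against −0.01 over every entry tested and −0.05 over the 812 repeat types other than LINE-1.

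These calls rested on the fit of the 4 libraries of 8 min, where edgeR called all 6 L1Md_ types lower and DESeq2 5. With all 8 libraries scaled together in 1 fit, the log2 fold changes of the 6 L1Md_ types were between −0.85 and −0.28. In that fit 0 types of any LINE-1 class passed (adjusted p = 0.451 for L1Md_A). Few entries of any kind passed there, with 2 of 21652 called higher and 20 lower, and 0 of 949 repeat types called. Among the 4-library fits, L1Md_A, L1Md_Gf and L1Md_F kept their calls when any 1 library was left out. L1Md_T lost its call without 4OHT number 1 (adjusted p = 0.176) or number 2 (adjusted p = 0.076), and so did L1Md_F3 (adjusted p = 0.348 and 0.184).

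**Figure D2:**
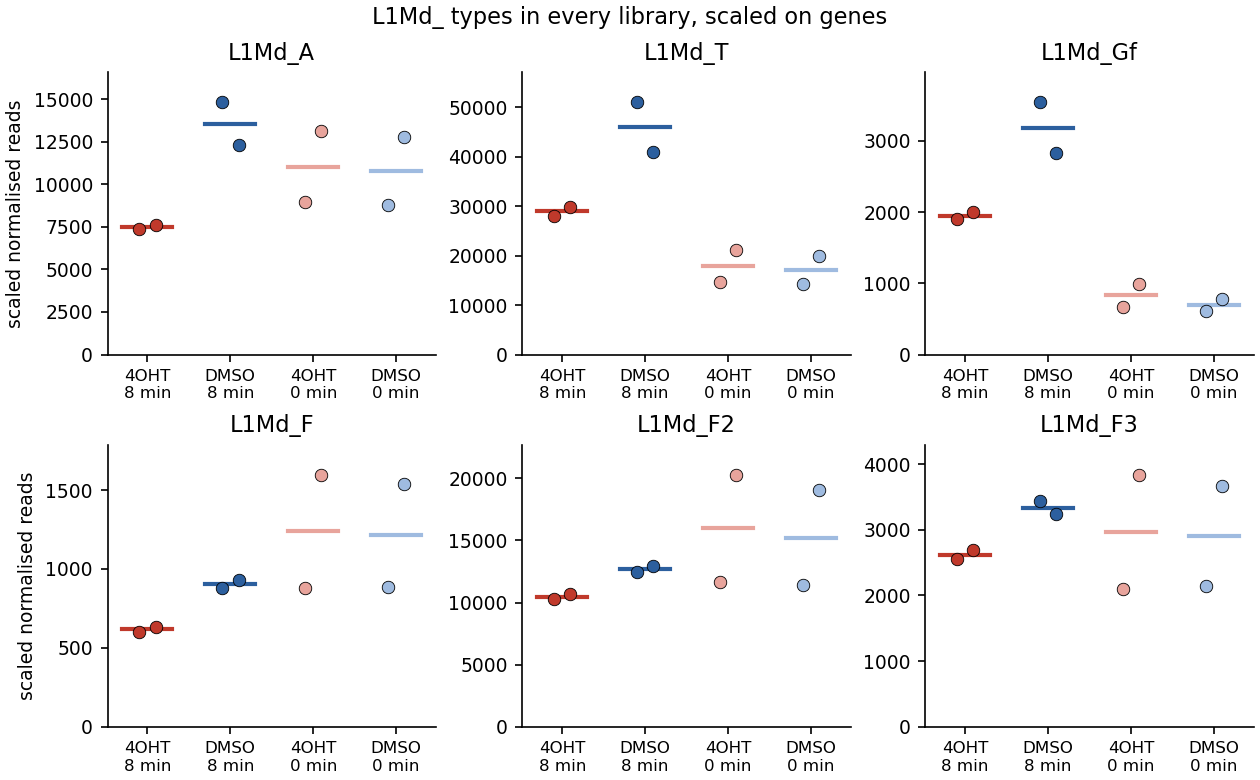
Values of the 6 L1Md_ types in each library after scaling all 8 libraries on genes (vertical axis, scaled normalised reads; axes differ between panels), with a line at each group mean. At 8 min both 4OHT libraries lay below both DMSO libraries for every type on these values (not on deposited values, where the median gene was itself 1.43 higher on the log2 scale), while at 0 min the 2 libraries of a treatment lay further apart than the treatment means.

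The murine L1_ and L1VL types all had lower scaled values with 4OHT at 8 min (and higher deposited ones). Of the 12, 2 fell past the threshold and 10 did not pass, with a median log2 fold change of −0.19 and a range of −0.35 to −0.13. L1_Mm had 2413 and 2226 with 4OHT and 3142 and 2762 with DMSO (log2 fold change −0.35 ± 0.10, SE; adjusted p = 0.00998). L1_Mur1 had 1633 and 1746 with 4OHT and 1938 and 2125 with DMSO (−0.27 ± 0.10, SE; adjusted p = 0.0379). The types with most reads in this class, L1_Mus3 (−0.14), L1_Mus1 (−0.18) and L1_Mur3 (−0.13), did not pass. The 4OHT libraries lay below the DMSO libraries, without overlap, in 12 of 12 types, beside 34.1% of every entry and 38.2% of repeat types, while the 2 of 12 called lower stand beside 16.8% of every entry and 9.36% of repeat types.

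Among the 21 Lx types the log2 fold change of scaled values at 8 min was negative in all, from −0.28 to −0.01, with a median of −0.08, but of those named Lx8 and Lx9 turned positive when repeat types set the scale and all 21 were positive on the deposited scale. Among all 940 repeat types 579 were negative on the scaled values, and those other than LINE-1 had a median of −0.05. Lx2B and Lx passed. These 2 of 21 called lower stand beside 16.8% of every entry and 9.36% of repeat types. Lx2B had 1737 and 1920 with 4OHT and 2140 and 2303 with DMSO (−0.28 ± 0.10, SE; adjusted p = 0.0289). Lx had 5736 and 5799 with 4OHT and 6622 and 7158 with DMSO (−0.26 ± 0.10, SE; adjusted p = 0.0444). The 3 types with most reads were close to the typical gene. Lx8 had 19139 and 19497 with 4OHT and 18991 and 20054 with DMSO (−0.01 ± 0.10, SE), Lx9 had −0.04 and Lx7 had −0.12. Groups were apart, with 4OHT below, in 11 of 21 types and overlapped in the other 10, beside 34.1% of every entry and 38.2% of repeat types with 4OHT below. The calls of Lx, Lx2B and L1_Mur1 were lost when either 4OHT library or DMSO number 2 was left out, and that of L1_Mm without 4OHT number 2.

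The old L1M types were spread on both sides of the typical gene. Of 82 tested, 47 had a log2 fold change above 0 and 35 below, with a median of 0.02. Of the 82, 2 were called higher and 1 lower. In the same fit 17.9% of every entry were called higher and 16.8% lower, and of repeat types 2.02% and 9.36%. L1M2a had 228 and 219 with 4OHT and 140 and 165 with DMSO, a fold of 1.46 (log2 fold change 0.55 ± 0.13, SE; adjusted p = 0.00268). L1MEi had 642 and 615 with 4OHT and 542 and 488 with DMSO (0.29 ± 0.10, SE; adjusted p = 0.0374). L1M3c, a type with few reads, had 29.8 and 43.0 with 4OHT and 46.4 and 66.5 with DMSO (−0.62 ± 0.22, SE; adjusted p = 0.0357). L1M2a kept its call when any 1 library was left out. L1MEi lost its call without 4OHT number 1 (adjusted p = 0.123) or DMSO number 2 (adjusted p = 0.195), and L1M3c without the same libraries (adjusted p = 0.391 and 0.289).

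The L1M types with most reads stood near the typical gene at 8 min. L1M4 had 8208 and 8003 with 4OHT and 7605 and 8227 with DMSO (0.04 ± 0.10, SE), L1M5 had a log2 fold change of 0.02 and L1M2 one of −0.04. L1M7 had 68.5 and 59.8 with 4OHT and 77.5 and 83.7 with DMSO (−0.33 ± 0.17, SE), which did not pass (adjusted p = 0.135). By letter, the median log2 fold change was −0.04 for 9 L1MA types, 0.09 for 7 L1MB, 0.01 for 11 L1MC, 0.08 for 6 L1MD and 0.03 for 27 L1ME types. The letter medians had no steady order from L1MA to L1ME, although 8 of the 9 L1MA types were on the negative side.

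No HAL1 or L1P type passed. HAL1 itself, the type of its class with most reads, had 2224 and 2272 with 4OHT and 2158 and 2335 with DMSO (log2 fold change 0.00 ± 0.09, SE). HAL1b (0.15), HAL1ME (0.02), HAL1M8 (−0.08) and HAL1_SS (−0.18) lay on both sides. L1PB4 (−0.01) and L1P5 (−0.13) had between 44.2 and 76.2 scaled reads in the libraries of 8 min. In these classes no estimate was farther from 0 than that of HAL1_SS, whose SE was 0.21.

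**Figure D3:**
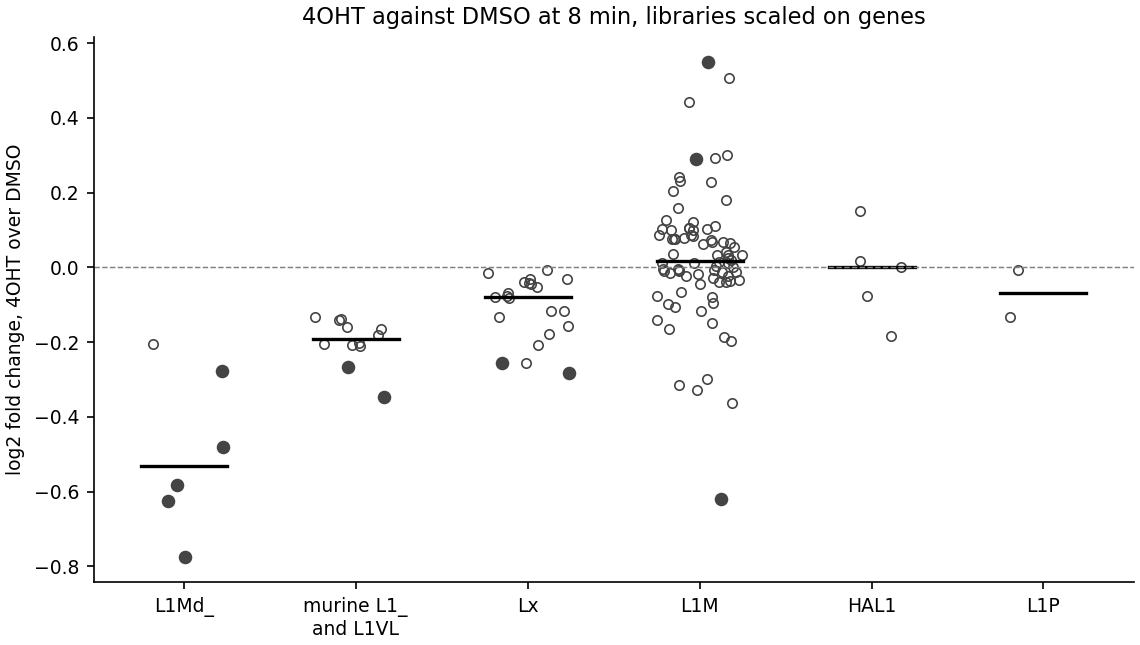
Log2 fold change, 4OHT over DMSO at 8 min, of the 128 LINE-1 types tested, by class (horizontal axis), with filled points for adjusted p below 0.05 and a line at the class median. The medians were −0.53 for L1Md_, −0.19 for murine L1_ and L1VL, −0.08 for Lx and 0.02 for L1M, whereas on the deposited scale all types tested had positive values.

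In all, 2 LINE-1 types were called higher and 10 lower of 128, beside 17 higher and 78 lower of the 812 other repeat types. The LINE-1 share of lower calls was thus near that of repeat types as a whole, and 5 of the 10 lower calls were L1Md_ types, which are 6 of the 128. The class medians order as L1Md_, then murine, then Lx, then L1M, but no test of the order was made. Calls over every entry moved with single libraries, though not always in the same direction as LINE-1 calls. The number of lower LINE-1 types moved with single libraries. It was 4 when either 4OHT library was left out, 17 when DMSO number 1 was and 6 when DMSO number 2 was, and the number of higher types was between 1 and 3.

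The 4OHT library of a number was also set against the DMSO library of the same number. Because the groups did not overlap for L1Md_ and murine types, their differences had to be negative in both sets, and only the sizes are of interest. For the 6 L1Md_ types they ran from −0.93 to −0.21 for number 1 and from −0.62 to −0.20 for number 2. L1Md_T, for example, had −0.79 for number 1 and −0.38 for number 2. Of the Lx types 14 of 21 were lower in both. Among L1M types 28 were higher and 17 lower in both, and the other 37 changed sign between the numbers, with medians of 0.09 for number 1 and −0.04 for number 2. Over the 128 types, Pearson's r between the 2 sets was 0.56, a description over types that share their libraries.

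**Figure D4:**
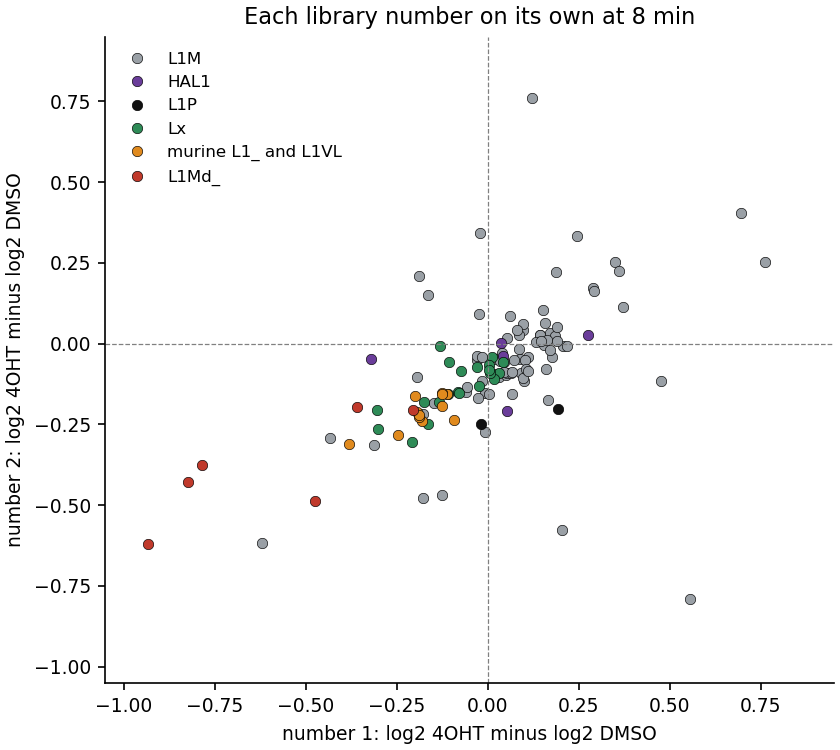
Difference in log2 value, 4OHT minus DMSO at 8 min, between libraries numbered 1 (horizontal axis) and between libraries numbered 2 (vertical axis), for the 128 LINE-1 types, coloured by class. All 6 L1Md_ types and all 12 murine types lay at the lower left, below 0 on both axes of these scaled values (the fitted values were positive on the deposited scale), while L1M types lay on all sides of the origin.

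On the scale the authors deposited, the comparison at 8 min looked different, since the median gene had a log2 fold change of 1.43 with 4OHT. All 129 LINE-1 types tested had positive values and 66 were called higher and 0 lower by limma on all 8 libraries, beside 56.4% of every entry higher and 0.12% lower, and 52.5% of repeat types higher and 0% lower. At an unadjusted p below 0.05 the 92 LINE-1 types found were all higher. By class, 60 of 83 L1M types were called higher, 4 of 5 HAL1 types, 1 of 2 L1P types, 1 of 21 Lx types, 0 of 12 murine types and 0 of 6 L1Md_ types. The median SE was 0.63 for L1M, 0.68 for Lx, 0.73 for murine and 0.82 for L1Md_ types, so these counts depend on the spread as well as on the size. With the column number as a block in the fit, 126 of the 129 types were called higher, 4 of them L1Md_. So were 18083 of 21652 entries and 900 of 949 repeat types. L1Md_A had deposited values of 19586 and 31588 with 4OHT and 13465 and 17414 with DMSO, which is 0.70 ± 0.89 on the log2 scale (SE) and did not pass (adjusted p = 0.452). The L1Md_ values were between 0.70 and 1.27 with a median of 0.94, and the class medians were 1.28 for murine and 1.49 for L1M types, with that of Lx types between them. Dividing a library by 1 number moves all its entries alike, so the place of a type relative to the median gene is carried over from the scaled comparison and adds no support to it.

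The deposited-scale calls were not stable, over every entry as well as for LINE-1 types. Without 4OHT number 2 or DMSO number 1 of 8 min, 0 LINE-1 types were called higher, against 27 without 4OHT number 1 and 31 without DMSO number 2 of 8 min. They numbered 16 without either DMSO library of 0 min, and 101 and 103 without 4OHT number 1 or number 2 of 0 min, which enter only through the shared estimate of spread. When the libraries were scaled by their spike-in reads the median gene moved to 0.12, the L1Md_ types had values from −0.64 (L1Md_A) to −0.07 (L1Md_F2), and 0 LINE-1 types were called in either direction. Spike-in reads were uneven within groups. They were 0.041% and 0.039% of reads with 4OHT and 0.027% and 0.067% with DMSO at 8 min. At 0 min they were 0.10% and 0.67% with 4OHT and 0.12% and 0.62% with DMSO. The absence of calls on this scale therefore decides little. Which scale follows the amount of RNA per cell was not tested.

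At 0 min, with no time for labelling, no LINE-1 type passed the test between treatments. Limma called 0 of 126 types after scaling the 4 libraries of 0 min and 0 of 129 on the deposited scale, with 0 types at an unadjusted p below 0.05 in either and 0 by edgeR on the recovered reads. The types not tested after scaling were HAL1_SS, L1M2a1, L1M3d, L1M6B and L1MEg2. No entry of any kind passed in these comparisons (0% of every entry tested). L1Md_A had 4722 and 6961 with 4OHT and 4631 and 6746 with DMSO (log2 fold change 0.04 ± 0.55, SE). L1Md_T had 7722 and 11178 with 4OHT and 7448 and 10544 with DMSO (0.07 ± 0.57, SE). In both, number 2 was high and number 1 low with either treatment, and the treatments overlapped.

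The precision at 0 min was lower. The SE of a LINE-1 type was 0.41 to 0.84 at 0 min, against 0.09 to 0.33 at 8 min, and LINE-1 reads numbered 1.56 M to 2.49 M at 0 min, against 4.99 M to 6.64 M at 8 min. L1Md_ log2 fold changes at 0 min were between 0.03 and 0.23, with a median of 0.05. In this fit, which did not pair libraries by number, a fall of the size seen at 8 min was therefore not detectable for these types at 0 min. Over genes, deviations of libraries with the same number correlated at 0.417 between the treatments at 0 min. The L1Md_A and L1Md_T values above also lay closer between treatments within a number than between numbers. With the number as a block, 0 LINE-1 types were called at 0 min.

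The difference between the 8 min and the 0 min effect of 4OHT, tested in 1 fit of all 8 libraries, passed for 0 of 129 LINE-1 types by limma and 0 by edgeR, and for 0% of every entry tested. One type had an unadjusted p below 0.05 with either tool. By limma it was L1Md_Gf, with a difference of −0.92 ± 0.38 (SE; adjusted p = 0.803). The estimate was negative for all 6 L1Md_ types, with a median of −0.65 against −0.09 over every entry, and for 12 of 12 murine, 20 of 21 Lx, 64 of 83 L1M, 5 of 5 HAL1 and 2 of 2 L1P types. Negative estimates were common among all features, with 715 of 949 repeat types and 12408 of 21652 entries. That L1Md_ types were called at 8 min and not at 0 min is therefore not shown to be a difference between the times.

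Comparing 8 with 0 min within a treatment, after scaling all 8 libraries on genes, separated the L1Md_ types from each other. L1Md_Gf was higher at 8 min under both treatments. Within 4OHT it had 1901 and 2002 at 8 min and 668 and 992 at 0 min (log2 fold change 1.26 ± 0.27, SE; adjusted p = 0.00467). Within DMSO it had 3539 and 2834 at 8 min and 616 and 786 at 0 min (2.18 ± 0.27, SE; adjusted p = 0.000441). The libraries of 8 min lay above those of 0 min without overlap in both treatments, and the calls held in all 12 alternatives tried for each.

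L1Md_T was also higher at 8 min within DMSO, with 50962 and 40879 at 8 min and 14174 and 19954 at 0 min (1.44 ± 0.47, SE; adjusted p = 0.0286). Within 4OHT it had 28072 and 29928 at 8 min and 14626 and 21087 at 0 min (0.72 ± 0.47, SE), which did not pass (adjusted p = 0.217). The DMSO call was lost without either 4OHT library of 8 min (adjusted p = 0.0615 and 0.0645), either DMSO library of 8 min (adjusted p = 0.19 and 0.127) or DMSO number 1 of 0 min (adjusted p = 0.109). L1Md_F went the other way within 4OHT, with 602 and 630 at 8 min and 878 and 1597 at 0 min (−0.94 ± 0.34, SE; adjusted p = 0.0439), a call lost without either library of 8 min under either treatment (adjusted p = 0.0768 to 0.168) or without 4OHT number 2 of 0 min (adjusted p = 0.183). Within DMSO L1Md_F had 881 and 930 at 8 min and 885 and 1539 at 0 min (−0.37), which did not pass.

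L1Md_A, L1Md_F2 and L1Md_F3 did not pass under either treatment. Their log2 fold changes were −0.53, −0.55 and −0.12 within 4OHT and 0.35, −0.21 and 0.25 within DMSO. As shares of the L1Md_ signal, L1Md_T made up 55.3% and 55.9% at 8 min and 37.6% and 34.6% at 0 min within 4OHT, and 59.2% and 55.9% at 8 min and 37.3% and 34.6% at 0 min within DMSO. L1Md_F2 made up 20.2% and 19.9% at 8 min and 30.0% and 33.3% at 0 min within 4OHT, and 14.5% and 17.7% at 8 min and 30.0% and 32.9% at 0 min within DMSO. The makeup of the L1Md_ signal thus differed more between the times than between the treatments.

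Other LINE-1 types that passed with time were few. Within 4OHT 4 of 129 types were called higher and 13 lower, beside 8.01% of repeat types higher and 8.54% lower, and 29% of every entry higher and 26.3% lower. Within DMSO 4 were higher and 6 lower, beside 11.6% of repeat types higher and 6.43% lower, and 30% of every entry higher and 25.1% lower. Types called under both treatments were L1Md_Gf and HAL1M8 among the higher, and HAL1ME, L1MEi, L1M2b, L1M3b, Lx2A1 and Lx3B among the lower. HAL1M8 had log2 fold changes of 0.99 within 4OHT and 1.14 within DMSO, HAL1ME −0.94 and −0.81, and L1MEi −0.91 and −1.14. L1M2a was higher within 4OHT (1.31, adjusted p = 0.0207) and had 0.42 within DMSO (adjusted p = 0.385). L1_Mm was lower within 4OHT (−0.68, adjusted p = 0.0475) and had −0.24 within DMSO (adjusted p = 0.446). The other types called within 4OHT were L1ME3E, which was higher, and L1M3c, L1M6, L1ME3D, L1ME4c and Lx2A, which were lower, and the other type called within DMSO was L1MB2, which was higher.

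The counts with time also moved with single libraries, over every entry as well as for LINE-1 types. Within 4OHT, higher types numbered 1 without 4OHT number 1 or number 2 of 8 min or 4OHT number 1 of 0 min, 2 without either DMSO library of 8 min and 15 without 4OHT number 2 of 0 min. Lower types within 4OHT numbered 4 and 6 without 4OHT number 1 and number 2 of 8 min, and 20 and 7 without 4OHT number 1 and number 2 of 0 min. Within DMSO, higher types numbered 12 without DMSO number 2 of 0 min, 2 without 4OHT number 1 of 8 min and 1 without 4OHT number 2 of 8 min, either DMSO library of 8 min or DMSO number 1 of 0 min. Lower types within DMSO numbered 2 without either DMSO library of 8 min. Labelling time may be mixed with cell line here, as stated above, and those causes cannot be told apart.

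**Figure D5:**
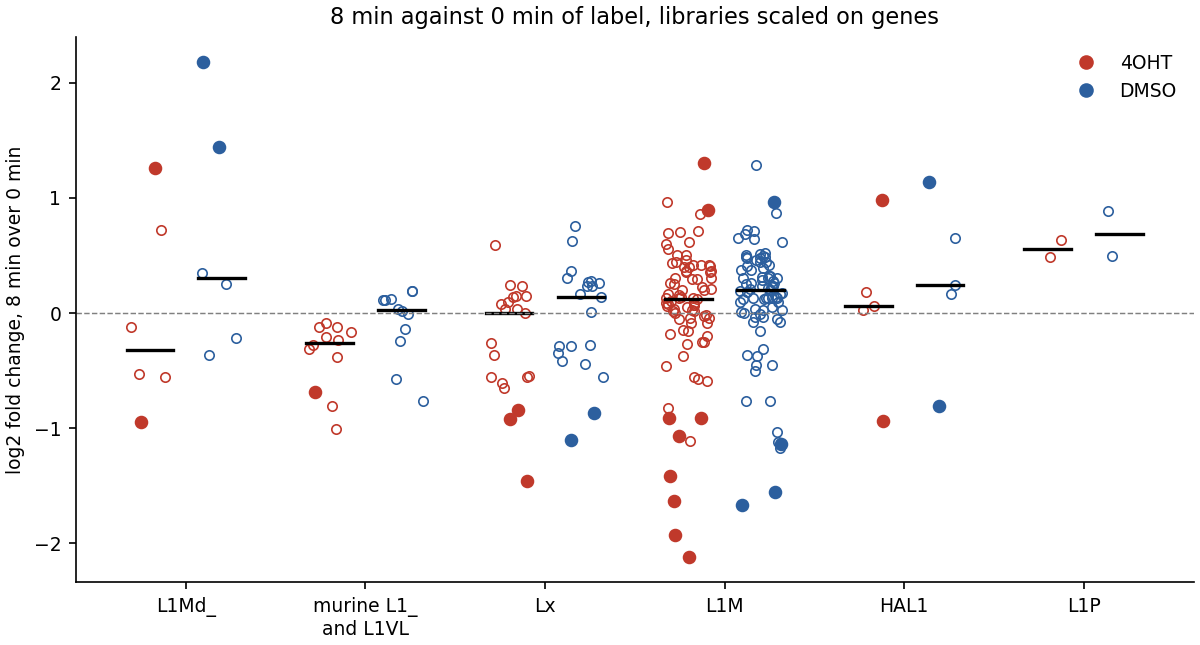
Log2 fold change, 8 over 0 min, of the 129 LINE-1 types tested, by class (horizontal axis), within 4OHT and within DMSO, with filled points for adjusted p below 0.05 and a line at each class median. L1Md_Gf stood highest under DMSO at 2.18 and was called under 4OHT at 1.26.

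Genes that act on LINE-1 were read in the same scaled comparison at 8 min. Of 26 silencing genes 1 was higher and 3 were lower, of 10 restriction genes tested 1 was higher and 4 were lower, and of 8 m6A genes 1 was higher and 1 was lower. The lower m6A gene was Ythdc1 (−0.54), the gene of the conditional genotype itself, and it is among the 8 lower genes counted next. Together these were 3 higher and 8 lower of 44 tested from 45 listed, at a median log2 fold change of −0.14, against 17.9% of every entry higher and 16.8% lower. On the deposited scale 22 of the 44 were higher and 0 lower, at a median of 1.33, against 56.4% of every entry higher and 0.12% lower. The 3 of smallest p were Uhrf1, which keeps DNA methylation through replication, Adar, which edits double-stranded RNA, and Mov10, a helicase that restricts LINE-1. Uhrf1 had 204 and 198 with 4OHT and 395 and 356 with DMSO (log2 fold change −0.89, adjusted p = 8.02e-06). Adar had 264 and 234 with 4OHT and 131 and 130 with DMSO (0.92, adjusted p = 1.62e-05). Mov10 had 39.7 and 48.3 with 4OHT and 97.8 and 107 with DMSO (−1.21, adjusted p = 2.31e-05). On the deposited scale Adar was higher (2.39, adjusted p = 0.00182), and Uhrf1 (0.58) and Mov10 (0.25) had positive values that did not pass. At 0 min 0 of the 44 passed by limma.

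L1td1, a gene derived from an ORF1 that is expressed in stem cells and is no member here, had 2459 and 2459 with 4OHT and 1958 and 1900 with DMSO at 8 min (log2 fold change 0.35, adjusted p = 0.00616). Markers of the 2-cell-like state moved with the treatment as well. Of 9 listed, 5 could be tested at 8 min and all 5 were higher with 4OHT, beside 17.9% of every entry. Zscan4c, Zscan4d and Zscan4f had deposited values of 3.19 to 7.09 with DMSO and 76.5 to 184 with 4OHT. They passed the filter through the 4OHT libraries alone, so their direction was set by the filter. MERVL-int (log2 fold change 1.13) and MT2_Mm (0.43) passed it with either treatment. The summed scaled values of the 9 were 12831 and 12193 with 4OHT and 5912 and 6280 with DMSO, most of them from the repeat MERVL-int. With 4OHT 0 and 1 of the markers stood at 0, against 2 and 4 with DMSO. These were among Tcstv3, Usp17lc, Zfp352 and Tdpoz4, which had at most 12.7 on the deposited scale and were not tested. Of the 8 stem cell markers 1 was higher and 3 were lower with 4OHT at 8 min. These stand beside 17.9% of every entry called higher and 16.8% lower. Sox2 was the higher one (0.43), Nanog (−1.02), Tdgf1 (−0.67) and Dppa5a (−0.49) were the lower ones, and Pou5f1 was among those that did not pass. On the deposited scale 2 were higher and 0 lower, beside 56.4% of every entry higher and 0.12% lower. Nanog had 0.45 there, which did not pass. The part of these cell states in the LINE-1 values was not tested.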

How the data were processed

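RNA was measured in 8 libraries of purified 4sU-labelled RNA. The authors deposited 1 table of normalised signal values for genes, repeat types, structural RNAs and spike-ins. The submitters' processing notes name STAR 2.7, Bowtie2, bcl2fastq and mm10 but no role for any of them. The strand used and the treatment of multi-mapping reads are not given in the sources used here. Each deposited signal value was a whole count of reads divided by a library's own number (8.1 to 29.49), whose meaning is unknown. On multiplying back, 99.9974% to 100% of values were whole to a tolerance of 0.01. Depth was 46.3 M to 134 M reads, and reads are not independent molecules.

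An entry was tested if it reached 10 in 2 or more of the fitted libraries, as log2(value + 1), by limma 3.58.1 (R 4.3.3) with an intensity-dependent prior, two-sided. Benjamini-Hochberg adjustment ran over every gene, repeat and structural entry together, and fold changes are on that log2 scale. Scaled comparisons used median-ratio factors on genes, from the 4 libraries of a time, or from all 8 for the difference and for labelling time. Deposited-scale fits used all 8. On the recovered reads, edgeR 4.0.16 called 3658 entries higher and 3452 lower at 8 min, and DESeq2 1.42.0 called 3706 and 3515, beside 3756 and 3534 by limma.

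The LINE-1 types and gene lists were chosen with earlier results of these data known. Types named were all L1Md_ types and, in each other class, the 3 with most reads and the 2 of smallest p in each direction at 8 min. Types called with labelling time and outside this rule were named after their values were seen. LINE-1 levels were not compared between types, because lengths and copy numbers of types were not used here. The calculations were tested on simulated data. Alternatives were other pseudocounts, filters, scalings, tools and adjustments, a block for the column number, and leaving out each library. Over genes, deviations of libraries with the same column number correlated between groups at 0.019 to 0.417, with 0.0944 between 4OHT and DMSO at 8 min, so the numbers were not taken as pairs.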

Additional observations from a re-analysis of the deposited data

How the results depend on the processing

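Leaving out 1 library, the L1Md_ share of LINE-1 signal at 8 min was 26.5% to 27.0% with 4OHT and 30.9% to 36.3% with DMSO. The L1Md_ types kept negative log2 fold changes at 8 min after scaling in all of them. The counts of called types were less stable, and the cause was not tested except where fewer libraries or entries entered. Counts over every entry moved as well. At 8 min with all 8 libraries scaled together, 2 of 21652 entries were called higher and 20 lower. At 8 min after scaling (2 higher, 10 lower), 1 type was higher and 3 were lower with no filter, 1 and 21 with a filter of 100, 1 and 3 with no trend in the prior, 1 and 5 when adjusted over repeat types alone, and 0 and 0 with all 8 libraries scaled together, while scaling on repeat types gave 4 higher. Leaving out 1 library gave 1 to 3 higher and 4 to 17 lower. On the deposited scale (66 higher), 2 were higher with no filter, and 0 with median-ratio scaling of all 8 libraries, with spike-in scaling or when adjusted over repeat types alone, and leaving out 1 library gave 0 to 103. With labelling time, leaving out 1 library gave 1 to 15 higher and 4 to 20 lower within 4OHT, and 1 to 12 higher and 2 to 9 lower within DMSO. With the column number as a replicate block, 126 types were higher on the deposited scale at 8 min (4 of them L1Md_). This stood beside 18083 of 21652 entries and 900 of 949 repeat types. Higher types with time numbered 8 within 4OHT and 11 within DMSO, beside 119 and 172 of 949 repeat types. With this block no LINE-1 type passed at 0 min or in the difference. In 1063 recomputed values, 50 for a single type turned sign.

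On the deposited scale, median-ratio scaling of all 8 libraries turned L1Md_A to −0.85, L1Md_F to −0.55, L1Md_F2 to −0.28, L1Md_F3 to −0.35, L1Md_Gf to −0.70 and L1Md_T to −0.66. Spike-in scaling turned the same types, in the same order, to −0.64, −0.35, −0.070, −0.14, −0.49 and −0.45. Median-ratio scaling is by construction set on the typical gene. Spike-in scaling uses no genes, and the median gene had 0.12 with it. At 8 min after scaling, the estimates that turned sign lay within 0.08 of 0. With no filter L1PB4 had 0.029 and Lx8 0.021. With a filter of 100 HAL1 had −0.042, HAL1ME −0.025, L1M4 −0.0084 and L1M5 −0.023. Scaling on repeat types gave L1M2 0.011, L1PB4 0.040, Lx8 0.032 and Lx9 0.0076, and all 8 libraries together gave HAL1 −0.072, HAL1ME −0.055, L1M4 −0.038 and L1M5 −0.053. HAL1 was at −6.67e-06 with TMM and −0.00083 with edgeR. Leaving out 1 library gave −0.30 to 0.28 for L1PB4, −0.057 to 0.035 for Lx8, −0.097 to 0.0097 for Lx9, −0.17 to 0.0029 for HAL1M8, −0.10 to 0.019 for L1M2, −0.058 to 0.054 for HAL1, −0.0022 to 0.055 for HAL1ME, −0.025 to 0.090 for L1M4 and −0.044 to 0.075 for L1M5 at 8 min. Larger estimates also turned. In the difference of effects (−0.34 for L1Md_F2 and −0.37 for L1Md_F3) it gave −0.71 to 0.061 for L1Md_F2 and −0.78 to 0.065 for L1Md_F3. With time it gave −0.54 to 0.27 for L1Md_F3 (−0.12) within 4OHT, and −0.16 to 0.59 for L1Md_F3 (0.25) and −0.60 to 0.10 for L1Md_F2 (−0.21) within DMSO. At 0 min, where libraries held fewer reads, 126 of 131 types could be tested, and the part of depth in the wider spread there was not tested.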

Other observations

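Some Lx types took unequal shares of the LINE-1 signal in the 0 min libraries numbered 1 and 2, under both treatments. Lx2 took 3.05% in number 1 and 1.64% in number 2 with 4OHT, and 3.16% and 1.63% with DMSO. Lx3B took 1.37% and 0.531% with 4OHT and 1.52% and 0.628% with DMSO, and Lx5 took 2.20% and 1.30% with 4OHT and 2.29% and 1.32% with DMSO. At 8 min these shares were nearly equal between numbers, with Lx2 at 1.45% and 1.51% with 4OHT and 1.39% and 1.51% with DMSO. These 3 types were picked after their values were seen, and the difference was not tested.

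Between the times, all 12 murine L1_ and L1VL types had a lower fitted level at 8 than at 0 min within 4OHT, with a median log2 fold change of −0.26. Limma called 1 of them, beside 8.54% of repeat types and 26.3% of every entry called lower. Their summed scaled values within 4OHT were 33046 and 34519 at 8 min, against 32869 and 55297 at 0 min. Only number 2 of 0 min thus lay above the 8 min libraries in this sum. Within DMSO 5 of the 12 had a lower fitted level at 8 min, with a median of 0.03. Limma called 0 of them, beside 6.43% of repeat types and 25.1% of every entry called lower. The difference between the treatments did not pass for any of the 12.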
